A study of Arabidopsis thaliana with 6 samples.

Results

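SWEET genes encode sugar transporters of plant membranes, and 7 of them were followed here in anthers of *Arabidopsis thaliana*: *SWEET3*, *SWEET7*, *SWEET8*, *AtVEX1* (*SWEET5*), *SWEET13*, *SWEET14* and *SAG29* (*SWEET15*). They were chosen by name with earlier results of these arrays known, as a set that holds genes higher and genes lower in *myb80* mutant anthers. Their difference between mutant and wild type is therefore given as a description, with no test. Each had 1 probe set, annotated to that gene alone, so the 7 genes are 7 of the 22746 probe sets measured and 7 of the 16 SWEET genes with a probe set of their own.

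The study compared anthers of plants with a mutation in MYB80, a MYB transcription factor of the tapetum, with anthers of wild-type plants. RNA came from dissected anthers of stages 5 to 8, about 1000 for each biological replicate, which take in meiosis and the release of microspores from tetrads. Each group had 3 one-colour Affymetrix arrays, named mutant 1, 4 and 5-2 and wild-type 2, 5 and 6. The sources used here do not give the mutant allele, the accession or age of the plants, or the meaning of the name 5-2. MYB80 itself has no probe set in the probe table used, so the labels were not checked on the mutated gene. With 3 arrays a group, precision is limited by their number.

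SWEET proteins let sugars pass a membrane down their gradient, without coupling to protons, and so can release sugar from one cell for uptake by the next. They fall into clades that differ in the sugars they prefer: clades I and II mostly move hexoses, clade III mostly sucrose, and clade IV lies in the vacuole membrane. Developing microspores have no symplastic link to the tissue around them, and sugar has to be exported from anther cells, the tapetum among them, before microspores can take it up. The tapetum is the innermost wall layer of the anther, and it breaks down as pollen matures.

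Values are intensities after each array was scaled to a common median, with values under 16 raised to that floor. Means are geometric means, and differences are mutant minus wild type on the log2 scale with the standard error from limma, n = 3 per group. Among the 7 genes the mutant arrays lay wholly above the wild-type arrays in 3 (*SWEET3*, *SWEET7* and *SAG29*) and wholly below them in 2 (*AtVEX1* and *SWEET14*), and the groups overlapped in 2 (*SWEET8* and *SWEET13*). Over the 15164 probe sets left after the dimmest 1 in 3 were taken out, the groups did not overlap in 17.3%, with the mutant above in 8.38% and below in 8.9%. All 7 genes passed that filter on dim probe sets. Since the genes were chosen with this contrast known, nothing is read from their count.

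**Figure D1:**
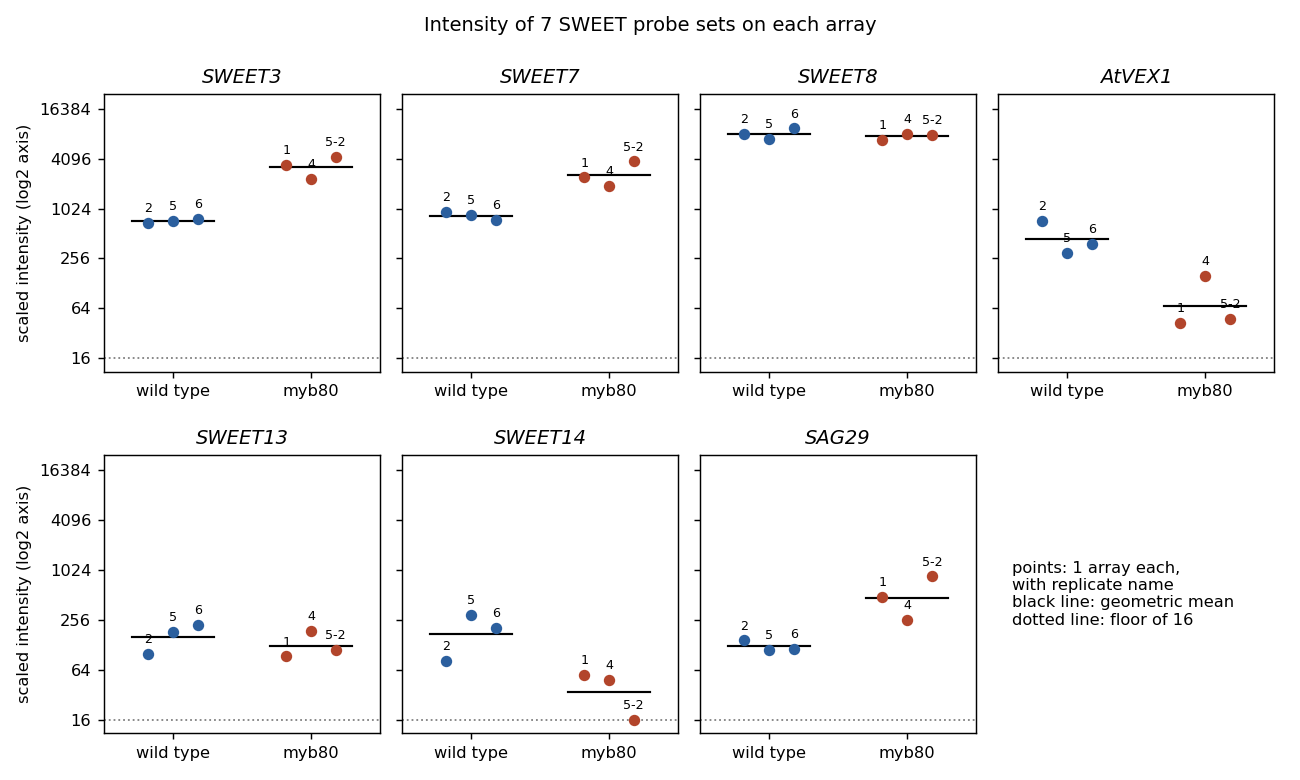
Scaled intensity (log2 axis) of 7 SWEET probe sets on each array, with wild type in blue and the *myb80* mutant in red; points are single arrays marked with the replicate name, black lines are geometric means, and the dotted line is the floor of 16. SWEET3 runs from 683 to 774 in wild type and from 2336 to 4326 in the mutant, whereas AtVEX1 runs from 296 to 723 in wild type and from 42.5 to 157 in the mutant.

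*SWEET3*, a clade I gene, read 683, 728 and 774 on wild-type arrays 2, 5 and 6 and 3484, 2336 and 4326 on mutant arrays 1, 4 and 5-2. The wild-type arrays differed among themselves by 1.13-fold at most, and the lowest mutant array was 3.02-fold above the highest of them. Its mean was 727 in wild type and 3278 in the mutant, 4.51-fold higher (log2 difference 2.17 ± 0.30). This is the largest difference upward among the 16 SWEET genes measured.

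*SWEET1*, the clade I gene best known as a glucose uniporter and not among the 7, read 288, 414 and 371 in wild type and 911, 661 and 1175 in the mutant. Its groups did not overlap either, with a log2 difference of 1.33 ± 0.30, but it did not pass the test over all probe sets (limma with Benjamini-Hochberg adjustment, adjusted p = 0.0641). *SWEET2*, the remaining clade I gene, differed by 0.61 ± 0.43 and its groups overlapped.

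Within clade II the genes did not share a direction. *SWEET7*, whose protein carries hexoses, read 943, 853 and 745 on wild-type arrays 2, 5 and 6 and 2434, 1944 and 3798 on mutant arrays 1, 4 and 5-2. Every mutant array was at least 2.06-fold above every wild-type array, and the mean was 3.11-fold higher, at 2619 against 843 (log2 difference 1.64 ± 0.31).

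*SWEET8*, also called RPG1 for the ruptured pollen grains of its mutant, is expressed in tapetum and microspores and is needed for the primexine, the matrix on which the patterned pollen wall forms. It read 8104, 7143 and 9484 on the wild-type arrays and 6981, 8067 and 7964 on the mutant arrays. The groups overlapped, and the spread within wild type, 1.33-fold, was wider than the 1.07-fold gap between the means (8188 and 7654, log2 difference -0.10 ± 0.26). The sign of this small difference was not stable: it was 0.03 after quantile normalization and 0.01 without wild-type replicate 6, and -0.06 on intensities as deposited.

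*AtVEX1* takes its name from expression in the vegetative cell of pollen, the cell that later forms the pollen tube. It read 723, 296 and 383 on wild-type arrays 2, 5 and 6 and 42.5, 157 and 47.9 on mutant arrays 1, 4 and 5-2. All mutant arrays lay below all wild-type arrays, and mutant 4 lay 3.69-fold above mutant 1. The mean was 434 in wild type and 68.4 in the mutant, 6.35-fold lower (log2 difference -2.67 ± 0.52), and without mutant replicate 4 it was 9.62-fold lower (log2 difference -3.27). Whether fewer cells of a type or less transcript in each cell lowers such a value cannot be told apart in RNA of whole anthers. The other clade II genes, *SWEET4* and *SWEET6*, overlapped between the groups, with log2 differences of 0.44 ± 0.30 and -0.24 ± 0.41, and *SWEET6* was among the dimmest 1 in 3 probe sets.

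Clade III holds the sucrose transporters, and its 3 described genes took 3 courses. *SWEET13* and *SWEET14* are close relatives whose double mutant in Arabidopsis has delayed opening of the anthers, and both proteins can also carry gibberellins. *SWEET14* read 82.1, 297.5 and 205 on wild-type arrays 2, 5 and 6 and 55.6, 48.0 and the floor of 16 on mutant arrays 1, 4 and 5-2. The groups did not overlap, but the gap was narrow: wild-type 2 was 1.48-fold above mutant 1.

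The mean of *SWEET14* was 171 in wild type and 34.9 in the mutant, 4.90-fold lower (log2 difference -2.29 ± 0.57). The difference was -1.73 without mutant replicate 5-2, the array at the floor, and -2.83 without wild-type replicate 2.

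*SWEET13* read 99.1, 185 and 223 in wild type and 92.8, 190.2 and 112 in the mutant. These ranges overlap almost wholly, and each group spans more than the gap between the means of 160.01 and 125 (log2 difference -0.35 ± 0.39). The difference between the responses of *SWEET13* and *SWEET14* was not tested, since both were chosen with their values known. *SWEET10*, the gene next to *SWEET13* on the chromosome in RefSeq's annotation, differed by 0.01 ± 0.32.

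*SAG29*, known from senescing leaves and as a sucrose exporter in developing seeds, read 145, 112 and 114 on wild-type arrays 2, 5 and 6 and 487, 256 and 859 on mutant arrays 1, 4 and 5-2. All mutant arrays lay above the wild-type arrays, by 1.77-fold at the narrowest, but the mutant arrays differed among themselves by 3.35-fold. Its mean was 123 in wild type and 475 in the mutant, 3.87-fold higher (log2 difference 1.95 ± 0.41). Leaving out mutant replicate 5-2 gave 1.52 and leaving out mutant replicate 4 gave 2.40.

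Of the remaining SWEET genes, *SWEET11*, which with SWEET12 loads sucrose into leaf phloem, differed by 0.19 ± 0.29, and *SWEET9*, the sucrose exporter of nectaries, by -0.79 ± 0.39. The vacuolar genes of clade IV, *SWEET16* and *SWEET17*, differed by -0.57 ± 0.47 and 0.54 ± 0.34. Groups overlapped for all 4. Of the 9 SWEET genes outside the 7, 7 were bright enough to be tested and 0 passed (limma, adjusted p under 0.05); 1 of them, *SWEET1*, had an unadjusted p under 0.05, at 0.00159. Over all 15164 probe sets 2.05% passed and 12.3% had an unadjusted p under 0.05, so counts this low in 7 genes lie near the background. *SWEET12* has no probe set of its own in the probe table and was not analysed here.

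The mutant arrays were not equally far from wild type. For *SWEET3*, *SWEET7* and *SAG29*, mutant 5-2 was the highest and mutant 4 the lowest of the 3 mutant arrays, with 1.85-fold, 1.95-fold and 3.35-fold between them. For *AtVEX1* mutant 4 was nearest to wild type as well, since it was the highest array of a gene that was lower in the mutant. *SWEET14* ran differently: mutant 1 was its highest mutant array and mutant 5-2 its lowest, 3.48-fold apart. Mutant 5-2 stood at the floor of 16 there, so this fold is a lower bound. Mutant 1 and mutant 4 were close, at 55.6 and 48.0, so the order rests on low values. Over the 6 arrays, which share the division into groups and the scaling, Pearson's r of log2 values was 0.98 between *SWEET3* and *SWEET7*, 0.96 between *SWEET3* and *SAG29*, -0.95 between *SWEET3* and *AtVEX1* and 0.68 between *AtVEX1* and *SWEET14*. These coefficients mostly restate the difference between the groups.

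Among the wild-type arrays alone, the 7 genes varied to different degrees. *SWEET3*, *SWEET7*, *SWEET8* and *SAG29* held within 1.13-fold to 1.33-fold, whereas *SWEET13*, *AtVEX1* and *SWEET14* spanned 2.25-fold, 2.44-fold and 3.62-fold. Wild-type 2 was the lowest array for *SWEET13* and *SWEET14* and the highest for *AtVEX1*.

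**Figure D2:**
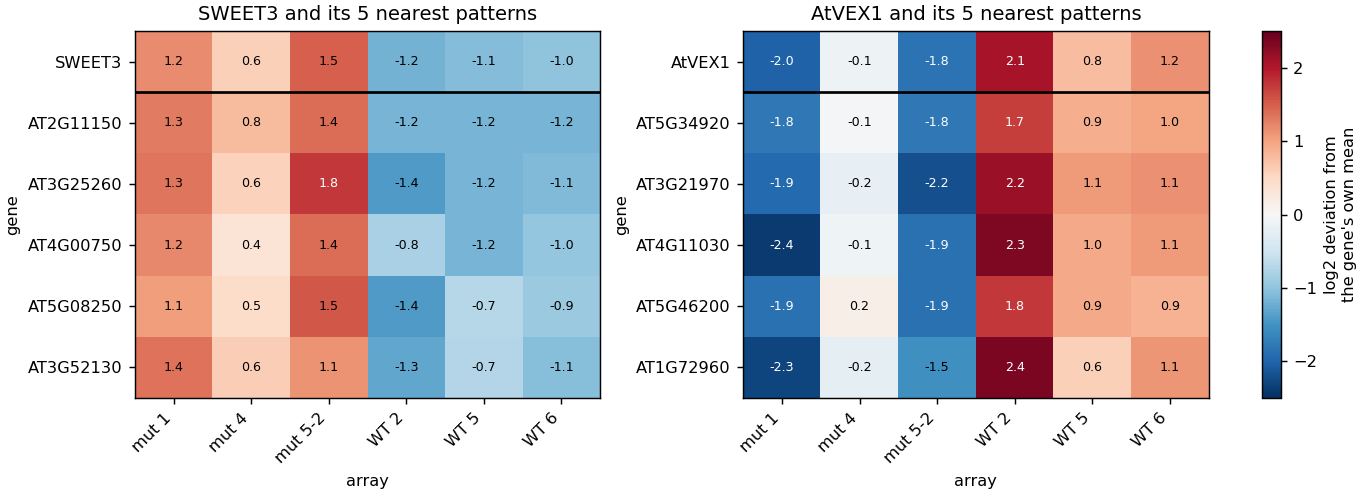
Log2 deviation from each gene's own mean over the 6 arrays (columns, mut for mutant and WT for wild type) for SWEET3, for AtVEX1 and for the 5 genes nearest to each (rows); red is above and blue below that mean. In the AtVEX1 panel mutant 4 stands near the mean of each gene, while mutant 1 and mutant 5-2 are well below it.

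The genes whose pattern over the 6 arrays came closest to those of *SWEET3* and *AtVEX1* were found among 8422 probe sets with 1 gene, by the root-mean-square difference of log2 values after each gene's own mean was taken off. Nearest to *SWEET3* were AT2G11150, annotated as a pseudogene, at 0.13, AT3G25260 (*NPF4.1*, of the nitrate and peptide transporter family) at 0.18, AT4G00750 at 0.19, AT5G08250 at 0.20 and AT3G52130 at 0.23. AT3G25260 read 110 to 138 in wild type and 438 to 1005 in the mutant, with mutant 4 again the lowest mutant array. AT2G11150 stood at the floor on all wild-type arrays, so its difference of 2.33 is a lower bound, and the floor sets its spread within wild type and with it part of its rank.

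Nearest to *AtVEX1* were AT5G34920, annotated as a pseudogene and measured by a probe set that may be shared, at 0.19, AT3G21970 at 0.19, AT4G11030 at 0.20, and AT5G46200 and AT1G72960 at 0.22 each. AT3G21970 read 833, 391 and 416 on wild-type arrays 2, 5 and 6 and 48.6, 162 and 40.8 on mutant arrays 1, 4 and 5-2, so that wild-type 2 and mutant 4 were the highest of their groups, as for *AtVEX1*. AT5G34920 and AT5G46200 stood at the floor on mutant 1 and mutant 5-2, and AT1G72960 on mutant 1, so the floor sets part of their likeness. These genes were found by likeness in this contrast, and they carry no test here.

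The level of marker genes of anther cells also differed between the arrays. These marker lists were chosen with earlier results of these data known, as were the sugar gene lists below. Their counts beside the shares over all probe sets are therefore a description and no test of a list. Of 22 tapetum markers 8 had a probe set, and their summed intensity ran from 53390 to 60712 on the wild-type arrays and from 66551 to 96396 on the mutant arrays. A few bright probe sets set this sum: *ATA20*, which hardly differed, read 23932 to 28137 in wild type. AT1G66850, AT5G62080 and AT5G07230 averaged 14690, 3238 and 3699 in wild type and 25640, 11272 and 8962 in the mutant. In the limma fit 2 of the 8, the lipid transfer protein genes AT5G52160 and AT5G62080, rose and 0 fell, where 0.448% of all 15164 probe sets rose and 1.6% fell. Neither of the 2 passed with the dimmest probe sets kept (limma adjusted p = 0.221 and 0.196). At unadjusted p under 0.05, 5 of the 8 were higher and 0 lower, against 4.87% higher and 7.41% lower over all probe sets. Of the 8 log2 differences 6 were above 0 and 2 below, with a median of 1.04. Averaged over the 8, the 3 mutant arrays deviated from the markers' own means by 1.00 (mutant 5-2), 0.47 (mutant 1) and 0.07 (mutant 4) on the log2 scale, the order seen for *SWEET3*, *SWEET7* and *SAG29*. All single markers had this order except *ATA27*, where mutant 1 was lowest, and AT1G66850, where mutant 1 was highest. None of the 8 stood at the floor on any array, and *AMS*, a bHLH factor of the tapetum, read 774 to 863 in wild type and 1173 to 3359 in the mutant. The pair below 0 were *ATA27*, a tapetal beta-glucosidase gene, which differed by -0.69 ± 0.33, and *ATA20*, whose probe set is shared with another gene, at -0.01 ± 0.26. The part of tapetal transcripts as a whole in the values of these 3 SWEET genes was not tested.

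The list of 14 microspore and pollen markers was covered in part, by 9 probe sets, 2 of them shared with a second gene. For the *VGD1* probe set that second gene, AT2G47030, is on the list as well. All 9 log2 differences were below 0, with a median of -2.43, and 2 of the 9, the pollen actin gene *ACT12* and the MADS-box gene *AGL104*, fell in the limma fit while 0 rose, against 1.6% lower and 0.448% higher over all probe sets. At unadjusted p under 0.05, 9 were lower and 0 higher, against 7.41% and 4.87%. With the dimmest probe sets kept, neither call stood (limma adjusted p = 0.271 for *ACT12* and 0.172 for *AGL104*). The summed intensity of the 9 probe sets ran from 15152 to 23449 in wild type and from 670 to 7784 in the mutant. Most of it came from *VGD1*, AT5G45880 and *PPME1*, with wild-type means of 6590, 3739 and 6862, where the other markers averaged 71.5 to 503. The sum mainly follows those genes and is no measure of microspores at the labelled stages. On average over the 9, mutant 1 was lowest at -2.24, then mutant 5-2 at -1.41, and mutant 4 stood at -0.05. *AtVEX1* had this order on scaled values, but as deposited it was lower on mutant 5-2 (42.7) than on mutant 1 (44.4). Of the single markers only *ACT12*, *VGD1*, AT5G45880 and *PPME1* had the order of the list's mean. Mutant 5-2 was lowest for *MGH3*, *AGL104* and *AGL66*, and mutant 4 for *AGL65* and *AGL18*. *ACT12*, *MGH3* and *AGL65* each stood at the floor on 1 mutant array. With mutant means of 29.7 and 28.8, *ACT12* and *AGL65* passed the filter on dim probe sets only through their wild-type values. Their place in the counts above rests on that. *SWEET14*, at the floor on mutant 5-2, did not follow the order of the list's mean. The part of microspore and pollen transcripts in the value of *AtVEX1* or *SWEET14* was not tested.

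Meiocyte markers were dim: for 4 of 9 listed genes the summed intensity ran from 109 to 122 in wild type and from 108 to 126 in the mutant. For green tissue and carpel, 4 of 8 listed genes had a probe set, with sums from 609.5 to 953 in wild type and from 995 to 1316 in the mutant. Of the 5 genes on these 2 lists that were tested, 0 passed in limma, against 2.05% of all probe sets in either direction. Higher in the mutant at unadjusted p under 0.05 in that fit were 2 of the 5, *ATMND1* and *LHCB4.1*. Over all probe sets 4.87% were higher at that threshold, and 12.3% differed in either direction. With a wild-type mean of 27.5, *ATMND1* passed the filter on dim probe sets only through its mutant values, so its place in this count rests on that. The carpel marker *INO* read 27.0 to 70.5 over all arrays.

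**Figure D3:**
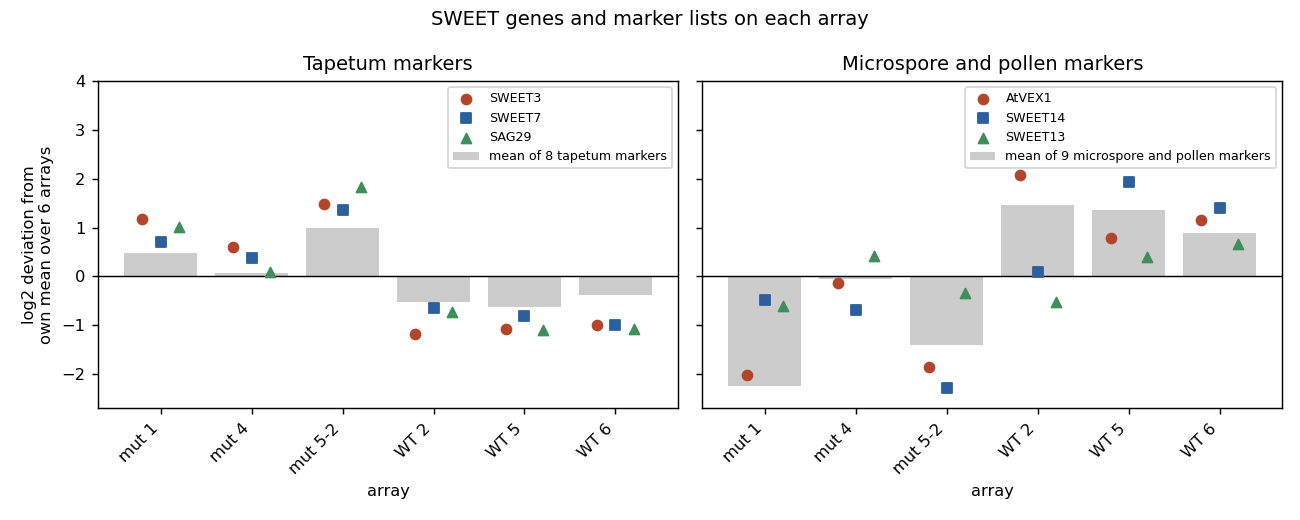
Log2 deviation from the own mean over 6 arrays, for 3 SWEET genes (points) and for the mean of a marker list (grey bars) on each array, mut for mutant and WT for wild type. Left, SWEET3, SWEET7 and SAG29 with 8 tapetum markers, where mutant 5-2 is highest at 1.00 for the list. Right, AtVEX1, SWEET14 and SWEET13 with 9 probe sets of microspore and pollen markers, where mutant 1 is lowest at -2.24 for the list.

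Sugar reaches its users through more than SWEET proteins, so other genes of sugar transport and use were looked up: proton-coupled sucrose and hexose transporters, vacuolar, plastid and polyol carriers, invertases, which split sucrose into hexoses, and enzymes of sucrose and starch synthesis. With the other SWEET genes these lists held 91 genes, of which 24 had a probe set of their own and 19 were bright enough to be tested. In the limma fit 1 of the 19 fell and 0 rose, where 2.05% of all 15164 probe sets passed at adjusted p under 0.05, 0.448% higher and 1.6% lower. At unadjusted p under 0.05, 3 of the 19 were lower and 1 was higher, against 7.41% and 4.87% of all probe sets. The balance of calls over all probe sets depended on scaling, with 68 higher and 243 lower here against 54 and 87 on the intensities as deposited. The median log2 difference of the 19 was -0.08, against 0.04 over all probe sets tested.

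AT1G62660, listed with the invertases, was the gene that fell. It read 584, 363 and 326 on wild-type arrays 2, 5 and 6 and 91.4, 174 and 132 on mutant arrays 1, 4 and 5-2, so every mutant array was below every wild-type array. The difference was 3.20-fold (log2 difference -1.68 ± 0.34, limma adjusted p = 0.0427). The call was lost without mutant replicate 1 or 5-2 and without wild-type replicate 2, 5 or 6, and also with the dimmest probe sets kept (limma adjusted p = 0.242). It was lost too on intensities as deposited (limma adjusted p = 0.075), after quantile normalization (0.0593) and with no floor (0.0698); over all alternatives the adjusted p ran from 0.0123 to 0.242.

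*TMT3*, a monosaccharide carrier of the vacuole membrane, had the largest difference of the sugar genes outside the SWEET family. It read 2827, 2162 and 1630 in wild type and 129, 1250 and 277 on mutant arrays 1, 4 and 5-2. The groups did not overlap, with mutant 4 nearest to wild type, and the 6.07-fold lower mean did not pass (log2 difference -2.60 ± 0.69, limma adjusted p = 0.107). Without mutant replicate 4 it was 11.4-fold lower and passed (limma adjusted p = 0.00255), without mutant replicate 1 the log2 difference was -1.87, and over all alternatives the adjusted p ran from 0.00255 to 0.447. Its relatives *TMT1* and *TMT2* differed by 0.06 ± 0.30 and -0.39 ± 0.30, with overlapping groups.

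The polyol carrier list added AT2G18480 and AT2G20780, whose scaled mutant arrays were all lower than wild type, by 1.07-fold and 1.02-fold at the narrowest. On the intensities as deposited the groups overlapped in both, and AT2G20780 stood at the floor on 1 mutant array. Their log2 differences, -1.03 ± 0.35 and -0.68 ± 0.39, missed the threshold (limma adjusted p = 0.226 and 0.562). Of the STP hexose transporter list 4 of 14 genes had a probe set, with log2 differences from -0.28 to 0.34, the largest in AT5G61520, and 0 of the 2 tested passed in limma, with 0 at unadjusted p under 0.05. The starch and sucrose synthesis list had 4 of 23, from -0.50 in *APL4*, a subunit of the enzyme that makes ADP-glucose for starch, to 0.43 in the starch branching enzyme gene *SBE2.2*, and 0 passed in limma, with 0 at unadjusted p under 0.05. None of the 9 listed proton-coupled sucrose transporters has a probe set of its own in the probe table, and they were not analysed here.

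**Figure D4:**
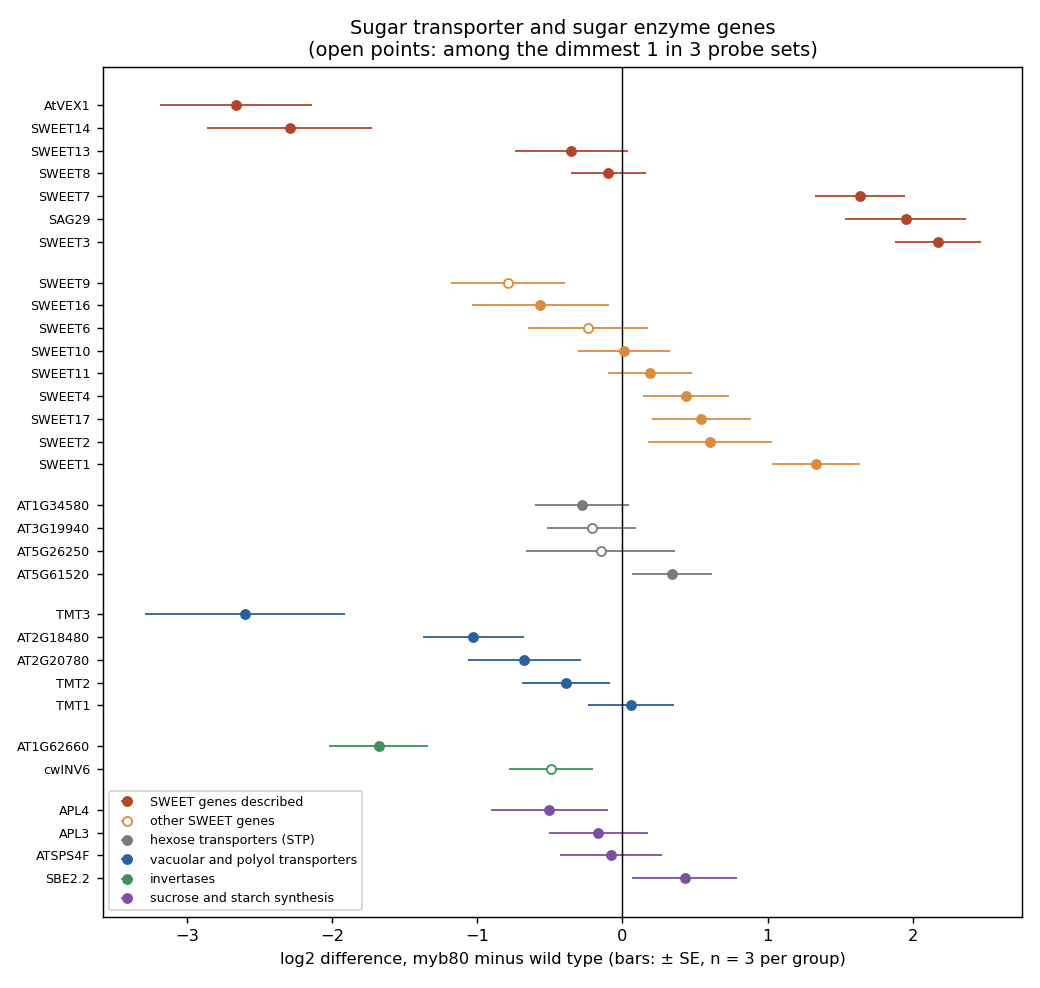
Log2 difference (mutant minus wild type, bars ± SE from limma, n = 3 per group) of the 7 SWEET genes described, 9 other SWEET genes and 15 other sugar transporter and enzyme genes; open points are among the dimmest 1 in 3 probe sets. The SWEET genes run from -2.67 in AtVEX1 to 2.17 in SWEET3, and TMT3 at -2.60 and AT1G62660 at -1.68 lie lowest among the rest.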

How the data were processed

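The series holds 6 arrays of biotin-labelled RNA, 3 of *myb80* mutant and 3 of wild-type anthers, grouped by their titles. The values themselves show that the deposited unit is intensity on a linear scale. The sources used here do not state how, or with which software, the authors summarised probes. After 64 controls were left out, arrays were brought to a common median by factors of 0.897 to 1.12, and values under 16 were raised to 16 and log2 transformed. Pearson's r across probe sets was 0.911 to 0.948 between arrays of a group and 0.879 to 0.919 between groups.

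limma 3.58.1 in R 4.3.3 (lmFit, then eBayes; two-sided p-values with Benjamini-Hochberg adjustment, threshold 0.05) was run on 15164 probe sets, without the dimmest 1 in 3 by mean over all arrays, and was checked on simulated data. For probe sets among the dimmest 1 in 3 the standard error comes from the fit without that filter. The labels call the replicates biological but are silent on whether plants shared a growth batch, so a p-value here reflects spread among these samples. Of 22746 probe sets, 13513 name 1 gene, 503 several and 8730 are unnamed here. Names were updated through RefSeq's annotation of TAIR10.1; coordinates are left out because the deposited table gives no build. Where a gene had several probe sets the brightest was used.

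The SWEET genes, gene lists and tests were chosen with earlier results of these data known. All 7 SWEET genes are named; from each sugar list every called gene or, with none called, the tested gene with the largest difference, and the 5 nearest patterns to the lowest and the highest of the 7. *SWEET2*, *SWEET4*, *SWEET6*, *SWEET9*, *SWEET10*, *SWEET11*, *SWEET16*, *SWEET17*, *TMT1*, *TMT2*, AT2G18480, AT2G20780, *SBE2.2* and single marker genes were named after their values were seen. Protein and promoter sequences were not analysed here.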

Additional observations from a re-analysis of the deposited data

How the results depend on the processing

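The log2 differences of *SWEET3*, *SWEET7*, *SAG29*, *AtVEX1*, *SWEET14* and *SWEET13* kept their sign under all 11 alternatives of scaling, floor and left-out array, and each stayed within 1 SD of its own value. That SD was pooled over both groups, and leaving out 1 of 3 arrays cannot move a group's mean so far. Where the groups do not overlap, it can hardly reverse the sign either. The left-out arrays are thus no check of stability for these genes, apart from the sign of *SWEET13*. *SWEET8* changed sign in 2 of the 11 and stayed between -0.20 and 0.03. The count of calls over all probe sets was not stable. Against 311 (68 higher, 243 lower) it was 141 on values as deposited (54 higher, 87 lower), 194 after quantile normalization, 532 with a floor of 32, 119 with no floor and 1 added, 3 with the dimmest probe sets kept (2 of them lower) and 527 with limma's trend. Leaving out 1 array gave from 32 (without wild-type replicate 5) to 534 (without mutant replicate 4), with 175 without mutant replicate 1, 39 without mutant replicate 5-2, and 54 and 77 without wild-type replicates 2 and 6. The sugar genes called, 1 in the main setting, were 0 as deposited, 1 after quantile normalization (*SWEET1*, higher, in place of AT1G62660), 0 with no floor, 0 with the dimmest probe sets kept, 2 when the dimmest 1 in 2 were dropped, 3 with a floor of 32, 3 with limma's trend, and 0 to 3 when 1 array was left out. *SWEET1* passed in 5 of 15 alternatives (limma adjusted p from 0.0215 to 0.238), *TMT3* in 3 of 15 and AT1G62660 in 6 of 15; the causes were not tested. No paired analysis was possible because the replicate names are not shared between the groups. Low intensities limit *SWEET14*, *SWEET6*, *SWEET9* and *SWEET16*, each with at least 1 array at the floor.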
